A study of Mus musculus with 16 samples.

Results

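The macrophage genes described here are 10 genes that mark macrophages in mouse tissues, out of 21965 genes in the count table. They are the complement genes C1qa, C1qb and C1qc, the receptor genes Adgre1 and Csf1r, the lysosomal genes Cd68 and Lyz2, and the scavenger receptor genes Cd163, Mrc1 and Marco. They were picked by symbol through their Ensembl identifiers, and all 10 had a row in the table. RNA of the terminal ileum was sequenced from 16 male mice with 1 library per mouse. The mice were WT C57BL/6 animals and fat-1 littermates that were heterozygous for a transgene, expressed in all tissues, which encodes an n3 fatty acid desaturase of C. elegans and is not among the mouse genes counted, so that the genotype could not be checked. They were 8 to 10 weeks old when feeding with Lieber-DeCarli liquid diet began. The EtOH groups reached 6% (v/v) EtOH and stayed there for 3 weeks, and the pair-fed (PF) groups took the same diet with maltose dextrin in place of EtOH. On the PF diet were 4 WT and 4 fat-1 mice, and on EtOH 3 WT and 5 fat-1 mice (written WT PF, WT EtOH and so on).

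Macrophages of the gut wall clear dying cells and bacteria below the epithelium and are renewed in large part from blood monocytes. Their survival depends on CSF1R, the receptor for CSF1 and IL34, and F4/80, the product of Adgre1, is the surface protein by which they are usually recognised. C1q, assembled from A, B and C chains, is the recognition molecule of the classical complement pathway and is made mainly by tissue macrophages and some dendritic cells. CD68 is a glycoprotein of lysosomes, and Lyz2 encodes the lysozyme of myeloid cells. CD163 takes up haemoglobin bound to haptoglobin, the mannose receptor (Mrc1) binds sugar chains, and MARCO binds bacteria and particles. Not every one of these genes is restricted to macrophages, since neutrophils also express Lyz2 and lymphatic endothelium also expresses Mrc1.

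Several libraries stood apart from the others in genes of gut position and of other cell types. In fat-1 EtOH mice 3 and 4, Car1, a carbonic anhydrase of the large intestine, was at 11157 and 12208 CPM and the Paneth cell gene Lyz1 at 42.7 and 42.3 CPM, and WT EtOH mouse 2 also had 4041 CPM of Car1. In fat-1 PF mice 2 and 4, the ileal bile acid transporter Slc10a2 was at 7.58 and 3.56 CPM, against 394 to 1382 CPM in the other 14 mice, and summed genes of the proximal small intestine were at 58314 and 59796 CPM. The smooth muscle genes were higher in every EtOH-fed mouse than in any PF mouse, at summed levels of 2170 to 4670 CPM against 1074 to 1690 CPM. In fat-1 EtOH mouse 5, summed genes of B-cell follicles stood at 628 CPM, against 3.03 to 128 CPM in the other mice. CPM are counts scaled to a common library size, and the libraries held 8422645 to 11438539 counts. Since a fold change in whole tissue can come from the number of cells or from the RNA in each cell, fewer macrophages and less RNA per macrophage cannot be told apart.

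**Figure D1:**
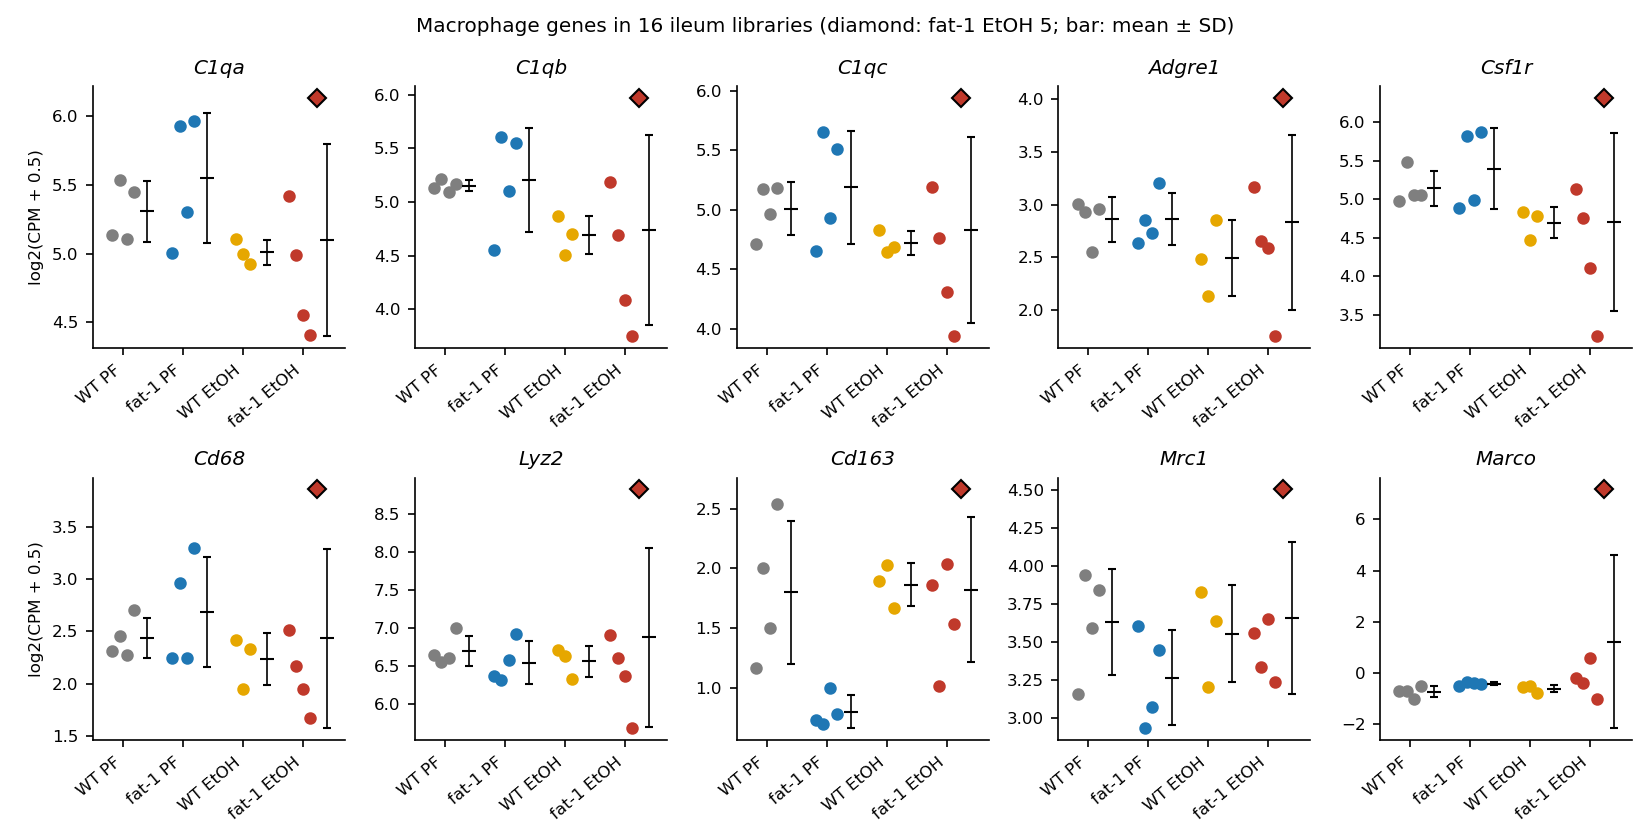
Level of each of the 10 macrophage genes, as log2(CPM + 0.5), with 1 point per mouse in the 4 groups. Black bars show the mean ± SD of each group. The diamond is fat-1 EtOH mouse 5, which had the highest value of all 16 mice in every panel.

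The 3 C1q genes lie side by side on the minus strand of chromosome 4 in GRCm38, C1qb from 136880129 to 136886187, C1qc from 136889804 to 136893065 and C1qa from 136895917 to 136898803. Because the C1q genes had similar profiles over the mice and Cd163 did not follow them, sequence upstream of these genes is printed from RefSeq with its build, GRCm38.p6, 5′ to 3′ on the strand of the gene. Of the 10 genes, 7 had an entry in the promoter table used, and C1qa, Csf1r and Adgre1 had none. Capitals mark the letters GAGGAA, the core of sites for the myeloid factor PU.1, and TGCTGA, the core of sites for MAF factors, on either strand. The stretches are the 250 bases before the start of C1qb (chr4:136886201-136886450), the 99 bases next to the first annotated exon of C1qc (chr4:136893066-136893164) and the 250 bases before the start of Cd163 (chr6:124304401-124304650, plus strand).
C1qb: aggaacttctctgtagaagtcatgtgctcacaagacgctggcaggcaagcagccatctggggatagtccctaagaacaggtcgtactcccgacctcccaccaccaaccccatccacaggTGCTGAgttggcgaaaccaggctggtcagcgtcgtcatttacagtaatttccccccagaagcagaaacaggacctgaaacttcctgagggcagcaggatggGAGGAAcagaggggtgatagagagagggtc
C1qc: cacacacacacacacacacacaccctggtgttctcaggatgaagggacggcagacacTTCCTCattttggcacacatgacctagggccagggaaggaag
Cd163: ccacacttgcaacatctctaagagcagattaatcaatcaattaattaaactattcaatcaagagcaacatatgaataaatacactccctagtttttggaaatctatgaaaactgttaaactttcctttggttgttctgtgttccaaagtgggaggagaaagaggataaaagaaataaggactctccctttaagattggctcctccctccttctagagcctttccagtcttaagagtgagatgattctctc
C1qb had GAGGAA from 30 to 25 bases and TGCTGA from 131 to 126 bases before its start. C1qc had GAGGAA on the opposite strand from 193 to 188 bases before its RefSeq start. No match of either was in the Cd163 window. Among all 32851 windows of 250 bases in the table, 23.3% held GAGGAA and 16.1% held TGCTGA on either strand, and 5 and 2 of the 7 members with an entry did. GAGGAA was held by C1qb, C1qc, Cd68, Marco and Mrc1, and TGCTGA by C1qb and Lyz2. Mrc1, which did not follow the C1q genes either, had 3 GAGGAA matches. A link between these letters and the profiles was not tested. No GAGGAA match overlapped a TGCTGA match in the windows of the members. These matches are letters only and were not tested as binding sites.

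C1qa, C1qb and C1qc had closely similar profiles over the mice. A differentially expressed gene (DEG) was taken as one with an adjusted p of 0.05 or less in edgeR's quasi-likelihood test. With 1 mean per group, none of these C1q genes was a DEG in any comparison of all mice. With terms for replicate number added to the fit, C1qa was called lower in fat-1 mice, beside 34.4% of all genes called. C1qa was at 34.6, 46.0, 33.9 and 43.2 CPM in WT PF mice 1 to 4 and at 33.9, 31.5 and 29.8 CPM in WT EtOH mice 1 to 3. In fat-1 PF mice 1 to 4 it was at 31.6, 60.4, 39.0 and 61.9 CPM, and in fat-1 EtOH mice 1 to 5 at 42.2, 31.2, 23.0, 20.7 and 69.5 CPM. The high values were those of fat-1 PF mice 2 and 4 and of fat-1 EtOH mouse 5, the lowest those of fat-1 EtOH mice 3 and 4, and the groups overlapped in both genotypes. C1qb was at 34.4, 36.7, 33.7 and 35.4 CPM in WT PF and at 28.7, 22.3 and 25.5 CPM in WT EtOH mice, so that these groups did not overlap. In fat-1 PF mice C1qb was at 23.0, 48.3, 33.9 and 46.4 CPM and in fat-1 EtOH mice at 35.9, 25.3, 16.5, 12.9 and 62.2 CPM. C1qc ranged from 24.7 to 49.8 CPM in PF mice and from 14.8 to 60.8 CPM in EtOH-fed mice, with fat-1 EtOH mice 4 and 5 at the ends.

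In WT mice, the log2 fold changes of EtOH against PF were -0.31 (SE 0.35) for C1qa, -0.46 (SE 0.41) for C1qb and -0.30 (SE 0.38) for C1qc, with edgeR adjusted p-values of 0.728, 0.644 and 0.756, where 0.0796% of all 13811 genes tested were called. The exact two-sided permutation test of C1qb gave p = 0.0571, the smallest value that 3 against 4 mice allow, and 12.1% of all genes tested were lower without overlap in the same comparison, the background for both C1qb and Csf1r. With only the WT mice in the fit, C1qb was lower at -0.45 (SE 0.10, edgeR adjusted p = 0.0351), where 8.32% of all genes were called. In fat-1 mice, the log2 fold changes were -0.37 (SE 0.31), -0.31 (SE 0.36) and -0.24 (SE 0.33), and none passed, with edgeR adjusted p-values of 0.357, 0.516 and 0.580, where 37.4% of all genes were called and 18.8% were called lower. Without fat-1 EtOH mouse 5, C1qa was lower at -0.70 (SE 0.24, edgeR adjusted p = 0.0345), beside 17.9% of all genes called lower, and C1qb and C1qc did not pass at -0.72 (SE 0.28) and -0.61 (SE 0.26), with adjusted p-values of 0.0570 and 0.0819. Without fat-1 PF mice 2 and 4 as well as fat-1 EtOH mice 3, 4 and 5, the same values were 0.08 (SE 0.19), 0.13 (SE 0.19) and 0.22 (SE 0.19). The sign in fat-1 mice thus depended on these 5 mice, of which fat-1 PF mice 2 and 4 and fat-1 EtOH mice 3 and 4 stood apart in genes of gut position and fat-1 EtOH mouse 5 in genes of B-cell follicles, and the part of either in it was not tested.

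The balance of the C1q chains varied less than their level. Per kilobase of exon, C1qa made up 41.0% to 50.4% of the summed C1q signal, C1qb 30.1% to 40.4% and C1qc 17.0% to 21.2% over the 16 mice. In fat-1 EtOH mouse 5, where the summed C1q level of 193 CPM was 2.03 times the median of the other 15 mice, the shares were 43.0%, 36.8% and 20.3%. Pearson correlations of log2 CPM between the C1q genes were 0.959 to 0.981 over the 16 mice and 0.946 to 0.976 over 15 mice without that mouse. These are descriptions, since the mice share groups and gut position.

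**Figure D2:**
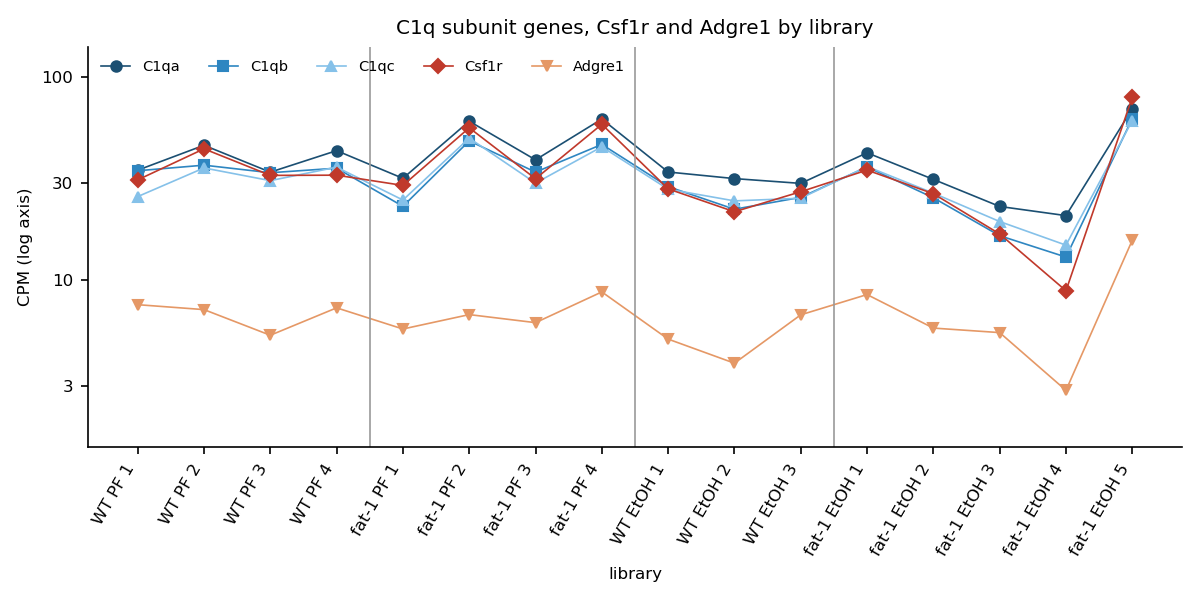
CPM of C1qa, C1qb, C1qc, Csf1r and Adgre1 on a log axis, by library, with grey lines between the groups. The C1q genes and Csf1r peaked together in fat-1 PF mice 2 and 4 and in fat-1 EtOH mouse 5 and were low in fat-1 EtOH mouse 4.

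Csf1r, the receptor gene for CSF1 and IL34 (chromosome 18 from 61100598 to 61132149, plus strand), followed the C1q genes. It was at 31.0, 44.1, 32.7 and 32.7 CPM in WT PF and at 28.0, 21.6 and 27.1 CPM in WT EtOH mice, again without overlap. In fat-1 PF mice it was at 29.1, 56.0, 31.4 and 58.3 CPM and in fat-1 EtOH mice at 34.7, 26.5, 16.8, 8.83 and 79.1 CPM. The fat-1 EtOH mice thus held both the lowest and the highest value of all mice. The log2 fold change of EtOH against PF was -0.46 (SE 0.52, edgeR adjusted p = 0.734, exact permutation p = 0.0571) in WT and -0.40 (SE 0.45, edgeR adjusted p = 0.507) in fat-1 mice. Csf1r was called lower without fat-1 EtOH mouse 5, with an edgeR adjusted p of 0.0374, beside 17.9% of all genes called lower. In fat-1 mice its log2 fold change was then -0.99 (SE 0.35). With fat-1 PF mice 2 and 4 left out instead it was 0.14 (SE 0.58), and without both these and fat-1 EtOH mice 3, 4 and 5 it was 0.03 (SE 0.19). Its correlations with the C1q genes were 0.953 to 0.967 over 16 mice. Of the 5774 exon bases of Csf1r, 873 are also exonic in Hmgxb3 on the opposite strand, and if strand was not used, reads there may have been set aside as ambiguous and missed for both genes.

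Adgre1, which encodes F4/80 (chromosome 17 from 57358691 to 57483527), was among the lower members. It was at 7.54, 7.13, 5.33 and 7.27 CPM in WT PF and at 5.10, 3.88 and 6.72 CPM in WT EtOH mice. In fat-1 PF mice it was at 5.72, 6.74, 6.15 and 8.71 CPM and in fat-1 EtOH mice at 8.46, 5.78, 5.49, 2.85 and 15.7 CPM. The groups overlapped in every comparison, and fat-1 EtOH mouse 5 had 2.56 times the pooled level of the other mice (95% counting interval 2.17 to 3.01). The log2 fold change of EtOH against PF was -0.38 (SE 0.41) in WT and 0.16 (SE 0.36) in fat-1 mice, and neither passed, with edgeR adjusted p-values of 0.719 and 0.741. The value in fat-1 mice was -0.26 (SE 0.28) without that mouse.

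Of the lysosomal genes, Cd68 (chromosome 11 from 69664213 to 69666153) rested on 30 to 164 counts per library. It was at 4.33 to 6.03 CPM in WT PF, 4.24 to 9.33 CPM in fat-1 PF, 3.36 to 4.83 CPM in WT EtOH mice and 2.68 to 14.03 CPM in fat-1 EtOH mice. The highest PF values were those of fat-1 PF mice 2 and 4, at 7.30 and 9.33 CPM. The log2 fold change of EtOH against PF was -0.22 (SE 0.48) in WT and -0.10 (SE 0.42) in fat-1 mice, with edgeR adjusted p-values of 0.871 and 0.868, and without fat-1 EtOH mouse 5 it was -0.70 (SE 0.28, edgeR adjusted p = 0.0623) in fat-1 mice.

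Lyz2 (chromosome 10 from 117277331 to 117282321, minus strand) was the most abundant member and, after Marco, the one furthest above the other mice in fat-1 EtOH mouse 5. It was at 99.8, 93.6, 97.0 and 127 CPM in WT PF mice, at 82.3, 79.0, 95.3 and 121 CPM in fat-1 PF mice and at 105, 99.2 and 80.3 CPM in WT EtOH mice. In fat-1 EtOH mice it was at 120, 97.4, 81.9, 51.1 and 453 CPM. The level of mouse 5 was 4.79 times that of the other mice pooled (95% counting interval 4.64 to 4.94), and mouse 4 had the lowest value of all mice. The log2 fold change of EtOH against PF in fat-1 mice was 0.77 (SE 0.48, edgeR adjusted p = 0.219), and -0.09 (SE 0.22) without mouse 5. With fat-1 EtOH mice 3 and 4 left out, so that mouse 5 was 1 of 3, it was 1.26 (SE 0.41) and Lyz2 was called higher, with an edgeR adjusted p of 0.0343, beside 14.7% of all genes called higher.

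Lyz1, the Paneth cell lysozyme beside Lyz2 on chromosome 10, was more abundant than Lyz2 in all but fat-1 EtOH mice 3 and 4, and 74 of the 1242 windows of 75 bases, the read length, in Lyz2 transcripts are also found in Lyz1. Over the mice, Lyz1 ran from 42.3 to 12210 CPM. In fat-1 EtOH mice 3 and 4, Lyz1 was at 42.7 and 42.3 CPM while Lyz2 was at 81.9 and 51.1 CPM, so that Lyz2 made up 65.7% and 54.7% of the counts of both genes. In the other mice this share was 0.761% to 10.2%. Lyz2 was thus detected where Lyz1 was low, and the highest Lyz2 value, in fat-1 EtOH mouse 5, went with 3970 CPM of Lyz1, below the 7186 and 6983 CPM of fat-1 EtOH mice 1 and 2. Of the members other than Lyz2, Csf1r alone shared such windows with another annotated transcript.

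**Figure D3:**
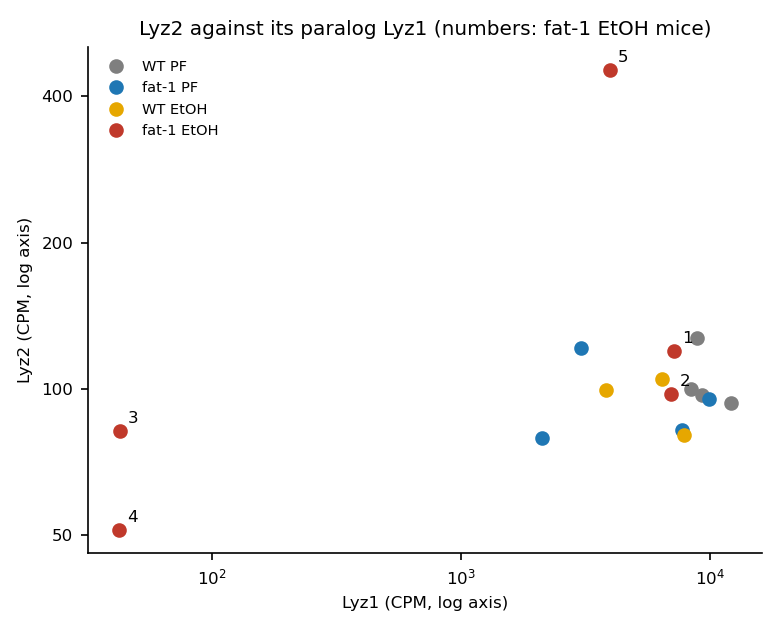
CPM of Lyz2 against CPM of Lyz1 on log axes, with 1 point per mouse and the fat-1 EtOH mice numbered. Lyz1 was at 42.7 and 42.3 CPM in fat-1 EtOH mice 3 and 4 while Lyz2 was at 81.9 and 51.1 CPM, and fat-1 EtOH mouse 5 stood alone at 453 CPM of Lyz2.

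Cd163, the haemoglobin scavenger receptor gene (chromosome 6 from 124304656 to 124330527), was the only DEG among the 9 members tested, and it was higher in fat-1 EtOH than in fat-1 PF mice. It rested on few reads, with 11, 8, 11 and 10 counts in fat-1 PF mice and 33, 18, 44, 27 and 68 counts in fat-1 EtOH mice. In WT mice it had 16, 31, 21 and 51 counts on PF and 36, 34 and 32 counts on EtOH. These counts were 1.17, 1.12, 1.503 and 1.23 CPM for the fat-1 mice on PF, and 3.14, 1.53, 3.61, 2.41 and 5.82 CPM for those on EtOH. The fat-1 PF mice were the 4 lowest of all 16, and the lowest fat-1 EtOH mouse, at 1.53 CPM, lay just above the highest fat-1 PF mouse, at 1.503 CPM. WT mice were at 1.75, 3.51, 2.33 and 5.30 CPM on PF and at 3.22, 3.57 and 2.69 CPM on EtOH, and overlapped.

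The log2 fold change of Cd163 in fat-1 mice was 1.39 (SE 0.39, edgeR adjusted p = 0.0131, exact permutation p = 0.0159, the smallest that 5 against 4 mice allow). Of all genes tested, 18.7% were called higher in this comparison and 10.6% were higher without overlap, and against that background 1 of 9 members is no result about macrophage genes as a group. The change was 1.10 (SE 0.36, edgeR adjusted p = 0.0279) without fat-1 EtOH mouse 5, where 19.3% of all genes were called higher. It missed the threshold when fat-1 EtOH mice 3, 4 and 5 were left out, at 0.91 (SE 0.44, adjusted p = 0.157 in edgeR), when fat-1 PF mice 2 and 4 were left out, at 1.31 (SE 0.54, adjusted p = 0.110), and when all 5 of these were, at 0.82 (SE 0.54, adjusted p = 0.365). It also missed it with limma voom, at 1.09 (SE 0.51, adjusted p = 0.122).

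In WT mice, Cd163 had a log2 fold change of -0.03 (SE 0.40, edgeR adjusted p = 0.979). Set against WT PF mice, fat-1 PF mice had a log2 fold change of -1.36 (SE 0.41), with an unadjusted p of 0.00478 and an adjusted p of 0.191 in edgeR. These groups did not overlap, and the exact permutation p was 0.0286, the smallest that 4 against 4 mice allow, where 2.62% of all genes tested were lower without overlap. Between the genotypes on EtOH the value was 0.07 (SE 0.38, edgeR adjusted p = 0.964). The difference between the responses of the genotypes, the interaction, was 1.42 (SE 0.56, unadjusted p = 0.0238) and missed the threshold with an edgeR adjusted p of 0.595. The fat-1 EtOH mean of 3.30 ± 1.61 CPM (SD, n = 5) was close to the WT means of 3.22 ± 1.57 (SD, n = 4) on PF and 3.16 ± 0.444 (SD, n = 3) on EtOH, the fat-1 PF mean was 1.25 ± 0.171 (SD, n = 4), and a difference in response from WT mice was not shown.

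Mrc1, the mannose receptor gene (chromosome 2 from 14229392 to 14332057), was the member nearest to Cd163 in its profile, with a correlation of 0.716 over 16 mice and 0.615 without fat-1 EtOH mouse 5. It was at 8.41, 14.8, 11.6 and 13.8 CPM in WT PF, at 13.7, 8.71 and 11.9 CPM in WT EtOH, at 11.7, 7.16, 7.93 and 10.4 CPM in fat-1 PF mice and at 11.3, 9.61, 12.1, 8.92 and 22.2 CPM in fat-1 EtOH mice. All groups overlapped. The log2 fold change in fat-1 mice was 0.46 (SE 0.27, edgeR adjusted p = 0.190), and 0.18 (SE 0.21) without mouse 5. Cd163 and Mrc1 did not follow the C1q genes, with correlations of 0.013 to 0.085 for Cd163 and 0.284 to 0.358 for Mrc1 over 16 mice. Without fat-1 EtOH mouse 5 these correlations were -0.281 to -0.218 for Cd163 and -0.065 to 0.008 for Mrc1.

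Marco (chromosome 1 from 120474538 to 120505024, minus strand) was above 12 counts in a single mouse. It had 1, 1, 0 and 2 counts in WT PF mice, 2 counts in each of the 4 fat-1 PF mice and 2, 2 and 1 counts in WT EtOH mice. In fat-1 EtOH mice it had 4, 3, 12, 0 and 1676 counts, or 0.380, 0.255, 0.984, 0 and 143 CPM. The level in mouse 5 was 585 times that of the other 15 mice pooled, which held 36 counts together (95% counting interval 421 to 838, for counting error only). PF mice and WT EtOH mice were all at or below 3 counts, which is 0.246 to 0.421 CPM in these libraries, so that Marco was not detectable above traces there. Besides mouse 5, fat-1 EtOH mice 1 and 3, at 4 and 12 counts, were above 3 counts.

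Marco was removed by the filter on low counts, and 9 of the 10 members were tested. With a filter of at least 1 count in any mouse it was called higher in fat-1 EtOH than in fat-1 PF mice, with a log2 fold change of 6.80 (SE 2.22, edgeR adjusted p = 0.0355), among 27.7% of genes called. With the same filter and without fat-1 EtOH mouse 5 it was 0.69 (SE 0.76, edgeR adjusted p = 0.524). The exact permutation p over all mice of these groups was 0.365, and the call rested on 1 mouse. The non-overlap of Marco between the genotypes on PF, with an exact permutation p of 0.0286, was between values of 2 counts or fewer and is no measured difference in level.

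In fat-1 EtOH mouse 5, all 10 members had their highest value of the 16 mice, where 14.8% of all genes tested did. The ratio to the other mice pooled was 1.92 for C1qa, 2.03 for Mrc1, 2.08 for C1qc, 2.11 for C1qb, 2.23 for Cd163, 2.56 for Adgre1, 2.59 for Csf1r and 2.97 for Cd68. Many genes outside the members were also highest in the same mouse, and 4 of them are named here. Siglec1, which encodes a sialic acid receptor, was at 31.0 CPM there and at 0.315 to 2.15 CPM in the other mice, and Cd209b, which encodes a lectin, at 45.8 CPM and at 0.0892 to 2.70 CPM. Stab2, a hyaluronan receptor gene of sinus endothelium, was at 11.1 CPM against at most 0.889 CPM, and Cd5l, a secreted macrophage protein, at 11.98 CPM against at most 0.245 CPM. These 4 genes were chosen after their values were seen.

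Genes of several other cell types were also high in mouse 5. The summed level of 10 genes of B-cell follicles was 7.91 times the median of the other 15 mice, that of 7 pan-leukocyte genes 5.50 times, of 11 dendritic cell genes 5.22 times, of 9 T cell genes 4.11 times, of 6 adipocyte genes 3.25 times, of 20 complement genes beyond C1q 2.69 times and of 8 genes of blood and lymph endothelium 2.64 times. All these sums were above those of every other mouse. Other lists were not: 20 further genes of macrophage identity and the CSF1 axis summed to 1.08 times the median of the other mice, 25 scavenger and phagocytic receptor genes to 1.48 times, and 14 granulocyte and mast cell genes to 1.504 times, each below the highest of the other mice, and 17 monocyte and inflammatory macrophage genes to 0.688 times. The macrophage identity sum was carried by a few abundant genes, such as Ctss at 298 of 1249 CPM. Some less abundant genes of that list, chosen after their values were seen, were above every other mouse. Spi1 was at 19.8 CPM against at most 7.85 CPM and Aif1 at 16.8 against at most 12.3 CPM. Tyrobp was at 32.3 against at most 26.4 CPM. Others were not, such as Il34, which was lower in every fat-1 EtOH mouse than in any fat-1 PF mouse. In the monocyte sum Plac8, which is not restricted to monocytes, held 794 of 1051 CPM in mouse 5, so that the sum mostly gives the level of Plac8. Csf1r was 28.9% of Ptprc, the CD45 gene of all leukocytes, in this mouse and 49.0% to 162% in the other mice, so that the share of the macrophage receptor in the leukocyte signal was lowest there. The part of these other cells in the members' values was not tested.

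**Figure D4:**
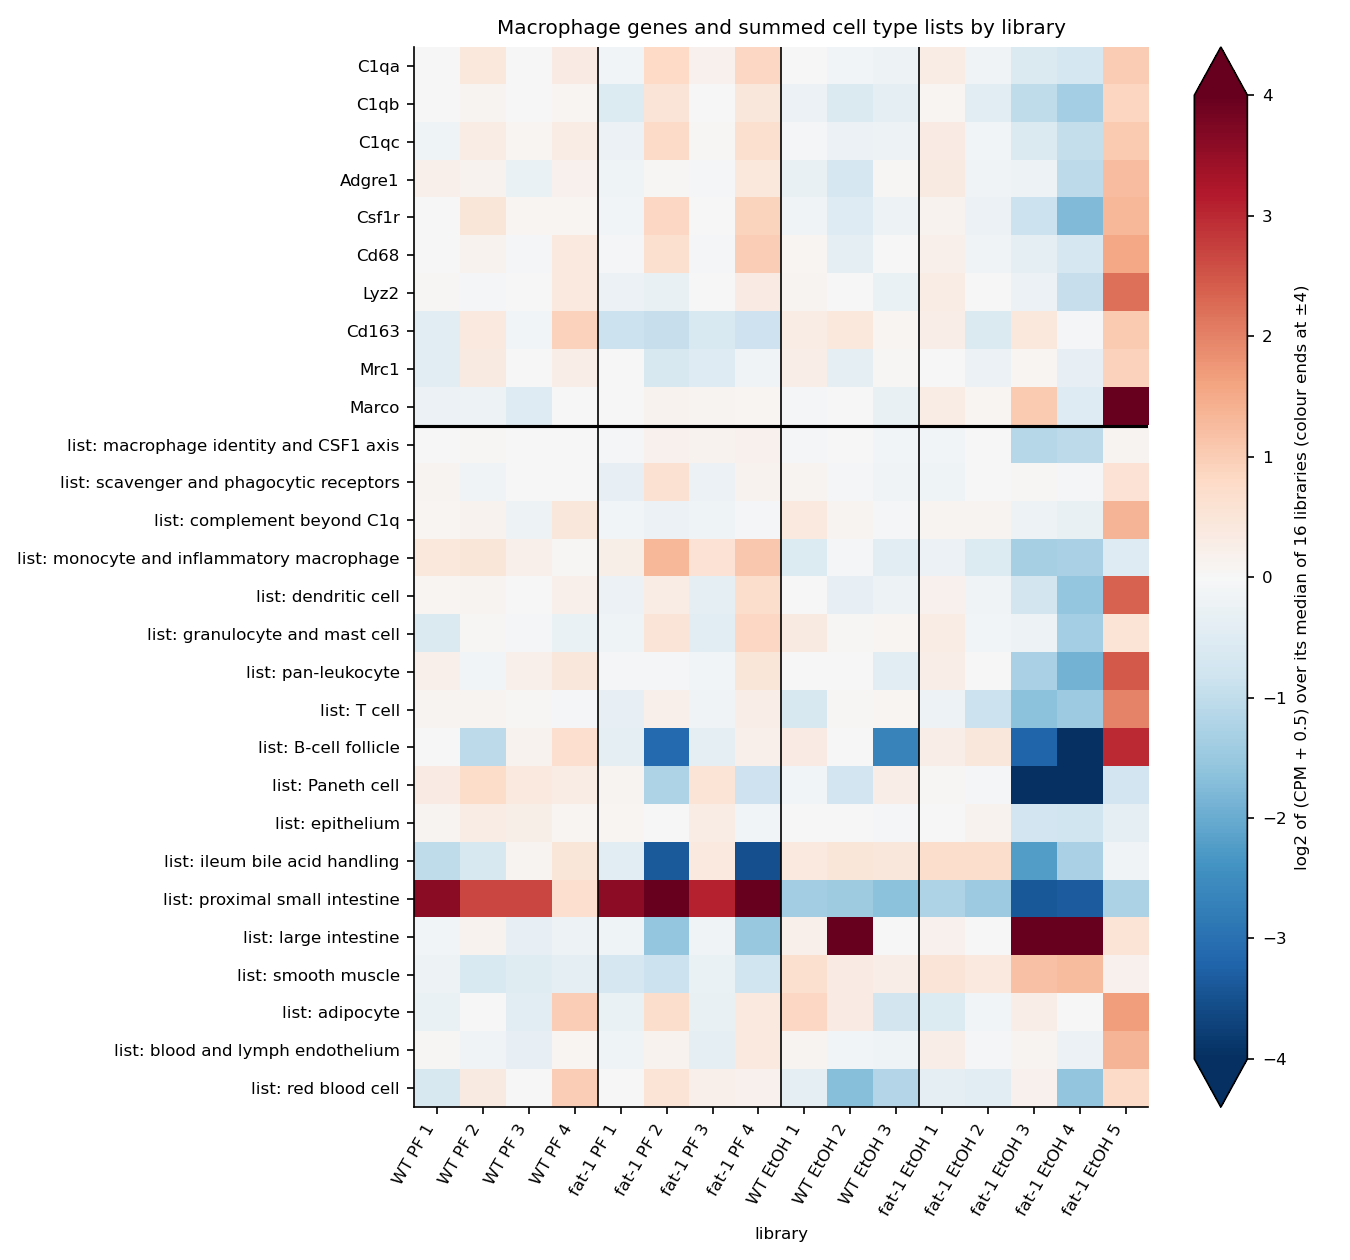
Macrophage genes (above the line) and summed levels of lists of cell type and gut position genes (below it) in the 16 libraries, as log2 of CPM + 0.5 over its median of the 16 libraries, with colours ending at -4 and 4. Fat-1 EtOH mouse 5 was high in the macrophage genes and in the B-cell, pan-leukocyte, dendritic and T cell lists, while fat-1 EtOH mice 3 and 4 were high in the large intestine list and low in the Paneth and B-cell lists.

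Levels of the members can be compared per kilobase of exon. By the median of the 16 mice the order was Lyz2 at 73.8, C1qa at 33.0, C1qb at 31.0, C1qc at 15.0, Csf1r at 5.41, Cd68 at 3.59, Adgre1 at 1.99, Mrc1 at 1.79, Cd163 at 0.467 and Marco at 0.110 CPM per kilobase. Each gene was above the next one in 15 or 16 mice, except for Adgre1 and Mrc1, which kept this order in 9 of 16 mice and did not differ beyond their spread. The exception for Csf1r above Cd68 and for Cd163 above Marco was 1 mouse each. In WT PF mice, the mean was 2.11 ± 0.311 (SD, n = 4) CPM per kilobase for Adgre1 and 1.91 ± 0.446 (SD, n = 4) for Mrc1.

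For the 9 members tested, no DEG was found in WT mice, where 0.0796% of all genes were called, nor between the genotypes on PF diet, where 0.0% were called, nor between the genotypes on EtOH, where 0.00724% were called, nor for the interaction, where 0.0% were called. At an unadjusted p under 0.05 edgeR gave 0 members in WT mice, 1 (Cd163) between the PF groups, 0 between the EtOH groups and 1 (Cd163) for the interaction, beside 14.1%, 12.7%, 4.86% and 8.26% of all genes, and neither DESeq2 nor limma voom called any member in these comparisons. Of all genes, DESeq2 called 1.86%, 1.37%, 0.0362% and 0.0% in the same order, and limma voom 20.7%, 0.217%, 0.00724% and 0.0%. The median log2 fold change of the 9 members was -0.30 in WT mice, where that of all genes was 0.01, and -0.10 in fat-1 mice, where that of all genes was 0.05. All 9 had a negative value in WT mice and 5 of 9 in fat-1 mice. Without fat-1 PF mice 2 and 4 and fat-1 EtOH mice 3, 4 and 5, the median in fat-1 mice was 0.14 and none of the 9 was negative. Upper-quartile scaling moved the median of all genes in fat-1 mice to 0.20 and that of the members to 0.05, with Cd68 at 0.05 in place of -0.10. The EtOH and PF comparisons of the genotypes share mice with the diet comparisons and are not independent of them.

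**Figure D5:**
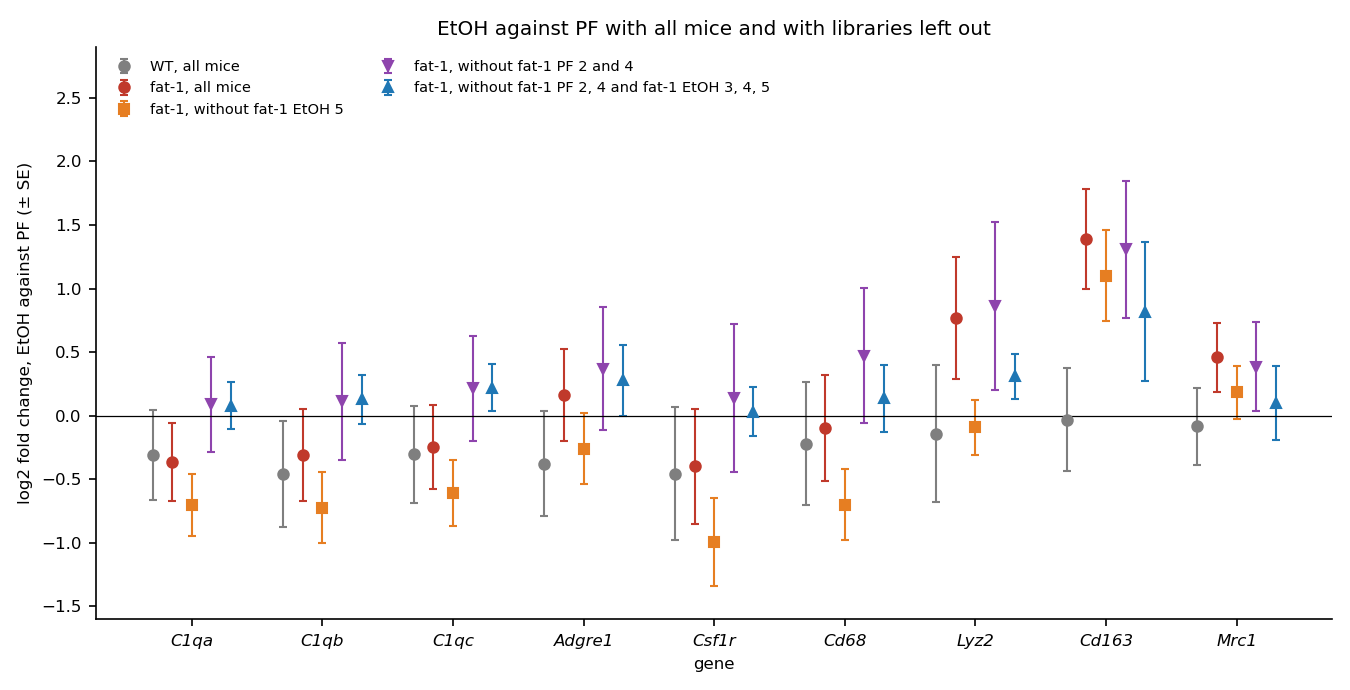
Log2 fold changes of EtOH against PF with their SE for the 9 members tested, in WT mice and in fat-1 mice with all mice and with the libraries that stood apart left out. In fat-1 mice, Csf1r moved from -0.40 with all mice to -0.99 without fat-1 EtOH mouse 5 and to 0.03 without 5 libraries, while Cd163 was positive at 0.82 to 1.39 throughout.

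The genes outside the members whose log2 CPM were most like the mean of Adgre1, Csf1r and Cd68 over the 16 mice were Vsir (Pearson r = 0.977), Sirpa (0.974), Apoe (0.961), Il2rb (0.960) and Abcg3 (0.952). Vsir and Sirpa encode inhibitory surface receptors of myeloid cells, Apoe apolipoprotein E and Il2rb a chain of the receptor for IL2 and IL15. Over 15 mice, with fat-1 EtOH mouse 5 left out, r was 0.923 to 0.967 for these genes, and after subtracting group means it was 0.960 to 0.983 over 16 mice. Those most like the mean of the C1q genes were Tyrobp (0.973), the adaptor of myeloid receptors, then Apoe (0.960), Il2rb (0.942), Hcls1 (0.940) and Aif1 (0.938), which encodes IBA1, with r of 0.916 to 0.969 without that mouse and 0.929 to 0.973 after subtracting group means. For Marco they were Fscn1 (0.948), Msn (0.935), Tcf7 (0.929), Lsp1 (0.924) and Cnn2 (0.923), with 0.919 to 0.966 after subtracting group means, and without mouse 5 r was 0.118 to 0.303. The likeness to Marco thus rested on 1 mouse.

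Of 20 other genes of macrophage identity and the CSF1 axis, 19 were tested and none was called in WT mice. In fat-1 mice 3 were called lower and 1 higher in EtOH, beside 18.8% and 18.7% of all genes. Il34, the ligand of CSF1R made by epithelial and other tissue cells, fell by 1.67 on the log2 scale (SE 0.29, edgeR adjusted p = 0.000927), from 6.42 to 14.9 CPM on PF to 1.96 to 4.53 CPM on EtOH. Mertk, a receptor for dying cells, fell by 1.07 (SE 0.23, edgeR adjusted p = 0.00308), and Cd14, the co-receptor for lipopolysaccharide, rose by 0.83 (SE 0.26, edgeR adjusted p = 0.0238). Csf1, the other ligand of CSF1R, was at 0.30 (SE 0.35) in fat-1 mice and did not pass, and Cd14 had the highest value in WT mice at 0.32. Without fat-1 EtOH mice 3, 4 and 5, Mertk in fat-1 mice was at -0.65 (edgeR adjusted p = 0.0902) and Cd14 at 0.39 (edgeR adjusted p = 0.302). Neither was then called, while Il34 was still called lower at -1.53 (edgeR adjusted p = 0.0139).

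The count of this list depended on the mice that stood apart, as did those over all genes. Without fat-1 EtOH mouse 5, 8 of 19 were called lower in fat-1 mice, with Spi1 (the gene for PU.1), Aif1, Tyrobp, Irf8 and Fcer1g beside those called with all mice, and 1 higher, beside 17.9% and 19.3% of all genes. With fat-1 PF mice 2 and 4 and fat-1 EtOH mice 3, 4 and 5 left out, 1 of 19 was called lower beside 2.93% of all genes, none higher beside 2.15%, and the median was 0.07 against -0.41 with all mice. In fat-1 EtOH mice 3 and 4, Spi1 was at 1.39 and 1.34 CPM against 3.36 CPM or more in every other mouse, and summed pan-leukocyte genes were at 85.2 and 55.6 CPM against 155 CPM or more.

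Of 26 scavenger and phagocytic receptor genes beyond the members, 25 had a row and 19 were tested. None was called in WT mice, where Scara3 at 0.31 and Clec10a at -0.98 were the ends, while in fat-1 mice 5 were called higher and 3 lower, beside 18.7% and 18.8% of all genes. Higher were Folr2, a folate receptor gene of resident macrophages (2.07, SE 0.55), Scara3 (1.82, SE 0.47), Colec12 (1.01, SE 0.19), the TAM receptor gene Axl (0.61, SE 0.17) and Lrp1 (0.34, SE 0.11). Lower were Stab1 (-1.19, SE 0.29), Scarf1 (-0.94, SE 0.32) and Ly75 (-0.77, SE 0.15), which encode endocytic receptors. Folr2 was at 0.245 to 0.702 CPM in PF and 0.765 to 2.74 CPM in EtOH-fed fat-1 mice, so that its PF values lay at or near the floor of 3 counts and the size of its change is uncertain, and Stab1 was at 26.2 to 55.1 and 8.12 to 28.0 CPM. The highest value in this list was that of Siglec1, at 2.95 (SE 1.15, edgeR adjusted p = 0.0562), and without fat-1 EtOH mouse 5 it was 0.32 (SE 0.54). Smooth muscle genes moved in the same comparison, with 8 of 8 called higher, and their summed level ran from 1074 to 1611 CPM on PF and from 2170 to 4670 CPM on EtOH in these mice. Their part in the receptor genes was not tested. Without fat-1 EtOH mouse 5 the counts were 5 higher and 4 lower, beside 19.3% and 17.9% of all genes. Scarf1 then lost its call (-0.87, edgeR adjusted p = 0.0602), while Msr1 (-1.26, edgeR adjusted p = 0.0170) and Cd209b (-2.07, edgeR adjusted p = 0.0112) were called lower, and Cd209b, which was at 45.8 CPM in mouse 5, was at 0.0892 to 0.760 CPM in the other fat-1 EtOH mice and at 0.848 to 2.70 CPM in fat-1 PF mice. Without fat-1 PF mice 2 and 4 the counts were 3 and 0, beside 5.99% and 7.95% of all genes, and with 5 libraries left out as above none of the 18 tested was called, beside 2.15% and 2.93%.

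Among 20 complement genes beyond C1q, 19 were tested and none was called in WT mice. In fat-1 mice C1s1, which encodes a protease that acts with C1q, rose by 0.84 (SE 0.25, edgeR adjusted p = 0.0183). Serping1, which encodes the inhibitor of that protease, rose by 0.68 (SE 0.18, edgeR adjusted p = 0.00938). C1qbp fell by 0.38 (SE 0.13, edgeR adjusted p = 0.0288) and Cfb, a factor of the alternative pathway, by 0.72 (SE 0.26, edgeR adjusted p = 0.0441), so that 2 were called higher and 2 lower, beside 18.7% and 18.8% of all genes. C1s1 was at 14.9, 20.9, 19.8 and 26.6 CPM in fat-1 PF mice and at 34.6, 31.1, 33.2, 21.6 and 63.7 CPM in fat-1 EtOH mice, which overlapped. The C1q genes themselves were not called beside these changes. The extreme values that did not pass were Cfd, an adipocyte gene, at 1.41 and Cfi at -1.76 in fat-1 mice, and C7 at 0.77 and Cfi at -0.98 in WT mice. Without fat-1 EtOH mice 3 and 4, where mouse 5 was 1 of 3, 8 were called higher, beside 14.7% of all genes, and with the 5 libraries left out 2 were called higher and none lower, beside 2.15% and 2.93%. Without fat-1 EtOH mouse 5 the counts were again 2 and 2, beside 19.3% and 17.9%, but Cfb lost its call (-0.75, edgeR adjusted p = 0.0532) and Cfi was called lower (-2.13, edgeR adjusted p = 0.0279). With upper-quartile scaling 3 were called higher and none lower, beside 3906 and 1753 of all 13811 genes. The calls of C1qbp and Cfb thus depended on the scaling.

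Of 17 monocyte and inflammatory macrophage genes, 11 were tested, and none was called in WT mice. In fat-1 mice Plac8 fell by 1.73 (SE 0.26, edgeR adjusted p = 0.000431) and Retnla rose by 1.41 (SE 0.52, edgeR adjusted p = 0.0443). Beside these, 18.8% of all genes were called lower and 18.7% higher. Plac8, which is not restricted to monocytes, was at 1615 to 3728 CPM on PF and 565 to 1082 CPM on EtOH in fat-1 mice, and the call of Retnla was lost without fat-1 EtOH mouse 5 at 1.18 (SE 0.52, edgeR adjusted p = 0.0906). Ccr2, the chemokine receptor of incoming monocytes, was at 0.96 (SE 0.39, edgeR adjusted p = 0.0636) and Ly6c2 at -0.27 (SE 0.59) in fat-1 mice. In WT mice the ends were Il1b at 0.35 and Plac8 at -0.70. Among 11 dendritic cell genes, 10 were tested and none was called in either genotype with all mice, with Ccr7 at 2.92 and Itgax at -0.87 in fat-1 mice and Zbtb46 at -0.06 and Xcr1 at -0.65 in WT mice. Ccr7 was at 51.3 CPM in fat-1 EtOH mouse 5 and at most 4.57 CPM elsewhere, and without that mouse its value was -0.20 (SE 0.67). Without fat-1 EtOH mice 3 and 4, 4 of 10 were called higher in fat-1 mice, beside 14.7% of all genes.

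Among genes of other cells, the immune lists held few calls with all mice. None of 7 pan-leukocyte, 9 T cell, 10 B-cell follicle and 5 red blood cell genes tested was then called in either genotype. Of 5 granulocyte and mast cell genes Prg2, of eosinophils, was called lower in fat-1 mice, beside 18.8% of all genes. The highest and lowest log2 fold changes were Ptprc at 0.98 and Laptm5 at 0.46 in fat-1 mice and Ptprc at -0.03 and Cd52 at -0.56 in WT mice for pan-leukocyte genes, and Cd5 at 1.61 and Cd8a at -0.32 in fat-1 mice and Cd3d at 0.20 and Cd28 at -0.57 in WT mice for T cell genes. For B-cell follicle genes they were Fcer2a at 2.49 and Cd79a at 1.03 in fat-1 mice and Blk at -0.11 and Ms4a1 at -0.70 in WT mice, and for granulocyte and mast cell genes Siglecf at 0.14 and Prg2 at -1.89 in fat-1 mice and Siglecf at 1.18 and Prg2 at -1.02 in WT mice. The fat-1 values of the first 3 lists depended on fat-1 EtOH mouse 5. Without it, Ptprc was at -0.24, Laptm5 at -0.81, Cd5 at -0.71, Fcer2a at 0.57 and Cd79a at -0.57, none of them called. Of the 9 T cell genes 4 were then called lower, beside 17.9% of all genes, namely Cd8a (-1.27, edgeR adjusted p = 0.00515), Cd3g (-1.16, 0.0123), Cd3d (-0.94, 0.0277) and Lck (-0.55, 0.0375). Without fat-1 EtOH mice 3 and 4, where mouse 5 was 1 of 3, 2 pan-leukocyte, 2 T cell and 5 B-cell follicle genes were called higher and none lower, beside 14.7% of all genes called higher, and without mice 3, 4 and 5 none was called. Red blood cell genes had Alas2 at 0.15 and Hbb-bs at -0.39 in fat-1 mice and Hbb-bt at -1.05 and Alas2 at -3.24 in WT mice.

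No Paneth cell gene of 8 was called, of 7 epithelial genes 1 was called higher and 2 lower, of 8 endothelial genes 2 higher and of 6 adipocyte genes 1 lower, all in fat-1 mice, where 18.7% of all genes were called higher and 18.8% lower. The ends were Ang4 at -0.05 and Defa17 at -1.24 in fat-1 mice and Ang4 at 0.00 and Lyz1 at -0.69 in WT mice for Paneth cell genes, and Krt18 at 0.48 and Vil1 at -0.88 in fat-1 mice and Krt18 at 0.47 and Krt20 at -0.47 in WT mice for epithelial genes. For endothelial genes they were Prox1 at 1.24 and Vwf at -0.34 in fat-1 mice and Pdpn at 0.29 and Madcam1 at -0.59 in WT mice, and for adipocyte genes Plin1 at 1.53 and Cidec at -0.98 in fat-1 mice and Plin1 at 0.59 and Cidec at -0.34 in WT mice. The lists of gut position and muscle held more calls in fat-1 mice, with 8 of 8 proximal small intestine genes lower, 4 of 6 large intestine genes higher, 1 of 6 ileal bile acid genes higher and 8 of 8 smooth muscle genes higher, beside the same shares. Their ends were Adh1 at -3.66 and Lct at -10.83 in fat-1 mice and Onecut2 at -1.39 and Lct at -10.70 in WT mice for proximal genes, Car1 at 10.38 and Car4 at 0.87 in fat-1 mice and Aqp8 at 9.01 and Car4 at 0.33 in WT mice for large intestine genes, Slc10a2 at 1.42 and Fgf15 at -0.99 in fat-1 mice and Fgf15 at 1.51 and Slc51b at 0.09 in WT mice for ileal bile acid genes, and Cnn1 at 1.81 and Lmod1 at 0.70 in fat-1 mice and Myh11 at 1.03 and Lmod1 at 0.35 in WT mice for smooth muscle genes. The large intestine values rested on fat-1 EtOH mice 3 and 4 and WT EtOH mouse 2, whose summed levels were 11893, 12882 and 5000.0 CPM, against 307 to 455 CPM in the other EtOH-fed mice. Without fat-1 EtOH mice 3, 4 and 5, Car1 was at 3.49 (edgeR adjusted p = 0.443) and Aqp8 at 1.48 (edgeR adjusted p = 0.873) in fat-1 mice, and 1 of 6 was called higher. Without fat-1 PF mice 2 and 4 none of the 6 was called, nor was any epithelial, adipocyte, ileal bile acid or granulocyte and mast cell gene, beside 5.99% of all genes higher and 7.95% lower. With all 5 of these libraries left out, 4 of 8 proximal genes were called lower, no large intestine gene and 6 of 8 smooth muscle genes higher, beside 2.93% of all genes lower and 2.15% higher. In WT mice 2 proximal genes (Lct and Gata4) were called lower and no other gene of these lists was called. The part of these genes of gut position and muscle in the members' values was not tested.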

How the data were processed

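RNA of the terminal ileum of 16 mice was sequenced by the authors as paired 75 base reads from poly(A)-selected, strand-marking libraries. Per the paper's methods, reads were mapped with tophat2 to mm10 with Ensembl gene models. The deposited table is labelled as raw htseq counts per gene, and the strand setting of htseq is not given in the sources used here. The submitters' processing notes also name bcl2fastq, FastQC 0.10.1 and Cufflinks. The deposited table holds these raw counts for 21965 genes, not normalized, and every sample was mapped to its group by the labels. Identifiers were named from GENCODE M21 (GRCm38), which lacked 26 of them. The library numbers of PF mice all precede those of EtOH-fed mice, so that library order and diet cannot be told apart.

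Counts were tested over all genes with edgeR 4.0.16 (R 4.3.3) by the quasi-likelihood test with robust spread, all 16 libraries and 1 mean per group. The filterByExpr filter left 13811 genes, TMM scaling was used, and p-values were adjusted by Benjamini-Hochberg at 0.05. Alternatives were DESeq2 1.42.0, limma 3.58.1 voom with sample weights, other scalings, filters of at least 1 count in any mouse or 10 counts in every mouse, only the compared groups, a replicate block, and mice left out. Single genes were tested by exact two-sided permutation on log2(CPM + 0.5) over mice, 40 tests in all, unadjusted. The smallest p possible was 0.0571 in WT mice, 0.0159 in fat-1 mice, 0.0286 between PF groups and 0.0357 between EtOH groups. CPM were counts scaled to a common size by the TMM-scaled library size (the cpm function of edgeR), with totals of 8422645 to 11438539 counts, so that 3 counts, the floor of detection, were 0.246 to 0.421 CPM. Log2 CPM for correlations used a prior count of 2. Intervals of ratios are exact 95% intervals for counting error only. The test was checked on simulated counts with the same spread for all genes and no mouse set apart within its group. The check thus does not cover libraries that stood apart, as some did here.

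All 10 members were described, with the highest and lowest gene of each other list in both diet comparisons, the called genes of the macrophage, receptor, complement, monocyte and dendritic cell lists, and the 5 genes most like each of 3 profiles by Pearson correlation. Of the genes this rule names, 2 are not reported here. Other genes named were chosen after their values were seen. The members and lists were chosen with earlier results of these data known.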

Additional observations from a re-analysis of the deposited data

Results flagged for a closer look

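Of 30 combinations of a member with a group of 4 or 5 mice, 3 held a mouse far from the others of its group by Dixon's criterion, where chance gives about 1 in 20. The 3 WT EtOH mice were too few for this check. Marco in fat-1 EtOH mouse 5 was at 143 CPM, and the other 4 mice of the group were at 0 to 0.984 CPM. Csf1r in WT PF mouse 2 was at 44.1 CPM, above 31.0 to 32.7 CPM in the other 3 mice, and Adgre1 in WT PF mouse 3 was at 5.33 CPM, below 7.13 to 7.54 CPM in the other 3.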

How the results depend on the processing

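The count of members called higher or lower in fat-1 mice was 1 (Cd163), beside 37.4% of all genes, and depended on the settings. It was 0 with limma voom (26.8% of all genes called), and 0 with at least 10 counts in every mouse (38.7%), where Cd163 was not tested. It was 2 with at least 1 count in any mouse (27.7%, Marco added) and 3 with that filter and without fat-1 EtOH mouse 5 (28.1%). Leaving out 1 mouse at a time gave 1 to 3 (28.5% to 39.4%): Marco was added at 6.78 without WT EtOH mouse 1, 2 or 3, since it then passed the filter, and Csf1r and C1qa without fat-1 EtOH mouse 5. It was 2 without fat-1 EtOH mice 3 and 4, with or without WT EtOH mouse 2 left out too (29.7% and 30.8%, Lyz2 added). It was 0 without fat-1 EtOH mice 3, 4 and 5 (17.9%), 0 without fat-1 PF mice 2 and 4 (13.9%), and 0 without all 5 (5.08%), alternatives chosen after seeing the data, as was the filter with fat-1 EtOH mouse 5 left out. In WT mice the count was 0 (0.0796%), and 1 (C1qb) with only the groups compared (8.32%). Beyond the constructions named, the cause was not tested. In the 3 other comparisons no alternative called a member. Over 29 alternatives, the log2 fold change of Cd163 in fat-1 mice was 0.82 to 1.57 and its adjusted p 0.00438 to 0.365, past the threshold in 25.

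Replicate numbers did not pair the mice, since deviations of same-numbered mice correlated at a mean of -0.0225 over 21 pairs and those of others at 0.00703 over 74. With the replicate block 2 members were called (34.4% of all genes), Cd163 and C1qa (-0.71, edgeR adjusted p = 0.0445), and fat-1 EtOH mouse 5 then has a term of its own. Upper-quartile scaling moved the calls over all genes in fat-1 mice from 2578 higher and 2592 lower to 3906 and 1753, and limma voom gave 1494 and 2203. All calls over genes in fat-1 mice ran from 5170 to 3086 with only the groups compared, 1965 without fat-1 PF mice 2 and 4 and 694 without the 5 libraries. Those in WT mice were 11, and 257 with DESeq2, 2853 with limma voom, 1103 with only the groups compared, 18 with the replicate block, 2 with at least 1 count in any mouse and 0 with at least 10 in every mouse. Leaving out 1 mouse gave 0 (WT EtOH mouse 1 or 3) to 66 (WT PF mouse 4), with 2 or 3 without WT PF mouse 1, 2 or 3, fat-1 PF mouse 1 or 4, WT EtOH mouse 2 or fat-1 EtOH mouse 1, and 17 without fat-1 EtOH mouse 4. It was 273 without fat-1 EtOH mice 3 and 4, 310 without mice 3, 4 and 5, and 1128 without the 5 libraries. Cd163 rested on 8 to 68 counts and Marco on 0 to 12 outside 1 mouse, which limits both.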
